A study of Rattus norvegicus with 43 samples.

Results

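Ccnd1, Ccnd2, Cdkn1a, Cdkn1b, Cdkn2b, Mdm2, Ccng1, Phlda3 and Gadd45a are 9 genes of G1 control and of the p53 response, and their transcripts were followed in rat liver and in the hepatocytes prepared from it. The members were chosen by name. Each was read from the probe set that carries its symbol alone and has the highest mean log2 signal, and all 9 were among the 10644 genes tested, of 14218 with a probe set. The samples came from 3 male Sprague Dawley rats without drug treatment, and ages were not given in the sources used here. Intact liver was a lobe tied off before perfusion, and rat primary hepatocytes (RPH) were taken as the cell pellet (0 h) and after 4, 24 and 48 h on collagen-coated plates. The medium was William's E with insulin, transferrin and dexamethasone, with serum for the first 4 h and without it afterwards. Each of the 5 groups held 1 sample from each rat, averaged over 2 or 3 technical arrays, which gave 15 samples from 43 arrays.

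Cyclins D1 and D2 (Ccnd1 and Ccnd2) bind the kinases CDK4 and CDK6, and the complexes phosphorylate RB, which releases E2F factors and allows entry into S phase. The CDK inhibitors p21 (Cdkn1a), p27 (Cdkn1b) and p15 (Cdkn2b) restrain these and related kinases, and p21 is also a classical target of the transcription factor p53. Mdm2 encodes the ubiquitin ligase that limits p53 and is itself a p53 target, as are Ccng1 (cyclin G1), Phlda3 (an inhibitor of AKT at the membrane) and Gadd45a (a stress protein that acts in growth arrest and repair). Hepatocytes of the adult liver are mostly quiescent, and isolation and plating are known to move them towards G1.

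The promoters of Cdkn1a, Ccng1 and Phlda3 are shown because Cdkn1a and Ccng1 hold a match to the p53 response element close to their start, with Phlda3 as a window without one. The windows of Mdm2 and Gadd45a, which were called higher than liver at 4 h, held none either. The windows are RefSeq sequence of build GRCr8, 250 bases before to 50 bases after the transcript start that the table uses, for Cdkn1a (chr20:7150682-7150981, plus strand), Ccng1 (chr10:25684827-25685126, minus strand) and Phlda3 (chr13:49744753-49745052, plus strand), and capitals mark the match.
Cdkn1a: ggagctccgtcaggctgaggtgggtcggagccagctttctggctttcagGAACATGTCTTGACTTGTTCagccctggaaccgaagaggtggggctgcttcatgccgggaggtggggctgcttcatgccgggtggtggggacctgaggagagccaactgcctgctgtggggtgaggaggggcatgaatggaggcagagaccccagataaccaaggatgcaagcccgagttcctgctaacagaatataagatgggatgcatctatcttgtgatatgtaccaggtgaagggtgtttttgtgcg
Ccng1: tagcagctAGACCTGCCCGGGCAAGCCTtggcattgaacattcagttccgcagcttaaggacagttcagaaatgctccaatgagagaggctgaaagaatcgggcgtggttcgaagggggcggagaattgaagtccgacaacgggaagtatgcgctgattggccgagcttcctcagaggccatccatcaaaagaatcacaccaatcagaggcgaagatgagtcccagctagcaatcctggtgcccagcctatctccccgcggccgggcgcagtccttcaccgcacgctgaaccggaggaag
Phlda3: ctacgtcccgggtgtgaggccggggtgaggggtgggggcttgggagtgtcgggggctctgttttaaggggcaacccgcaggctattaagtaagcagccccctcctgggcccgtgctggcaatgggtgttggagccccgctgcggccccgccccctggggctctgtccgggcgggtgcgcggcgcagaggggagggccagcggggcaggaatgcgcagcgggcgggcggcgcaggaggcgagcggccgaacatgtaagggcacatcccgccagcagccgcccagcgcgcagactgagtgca

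The p53 response element was searched as 2 adjoining half-sites of 10 bases with no spacer, with up to 2 mismatches outside the fixed C and G of each half-site. The motif reads the same on both strands, so both were covered. The matches of Cdkn1a (bases -201 to -182 from the start) and Ccng1 (bases -242 to -223) had 1 mismatch each. Windows of 7 members were at hand, for Cdkn1a, Cdkn1b, Cdkn2b, Mdm2, Ccng1, Phlda3 and Gadd45a, and 2 of the 7 held a match. Of 33469 windows of all genes, 112 (0.335%) held one, and 17 (0.0508%) held one with at most 1 mismatch. A match is a description of these letters and says nothing about binding in these cells. For a window without a match, elements outside it or with a spacer were not searched.

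Of the 9 members, 6 were called against liver at 4 h and 5 at 24 h and at 48 h, and none was called in the fresh cell pellet. A gene was called at an adjusted p under 0.05 in limma, with Benjamini-Hochberg adjustment over all 10644 genes. In 0 h cells against liver 0 of 9 members were called, with 0.141% of all genes called higher and 0.432% lower, and 1 member, Gadd45a, had an unadjusted p under 0.05. At 4 h against liver 3 members were higher (Mdm2, Ccng1 and Gadd45a) and 3 were lower (Ccnd1, Ccnd2 and Phlda3), beside 16.4% of all genes higher and 29.8% lower. At 24 h and at 48 h against liver Mdm2, Ccng1 and Gadd45a were higher and Ccnd1 and Ccnd2 lower, beside 23.7% of genes higher and 23.9% lower at 24 h and 25.4% higher and 22.6% lower at 48 h. With so many genes called, the counts of members alone do not set them apart from other genes.

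Against the 0 h pellet, Cdkn1a, Mdm2 and Ccng1 were higher at 4 h and Ccnd1, Ccnd2 and Phlda3 lower, beside 16.3% of all genes higher and 22.7% lower. At 24 h against 0 h Cdkn1a, Mdm2 and Ccng1 were again higher and Ccnd1 and Ccnd2 lower (24.2% of genes higher, 17.3% lower). At 48 h against 0 h Cdkn2b, Mdm2 and Ccng1 were higher and Ccnd2 was lower (26.6% higher, 17.5% lower), the call of Cdkn2b being close to the threshold and lost with no filter on low signals. Between 24 h and 4 h, Cdkn2b and Phlda3 were higher at 24 h and Mdm2 and Ccng1 lower (26.3% higher, 13.5% lower). Cdkn2b was near the low end of the arrays and passed the filter through the samples in which it was high. With the technical arrays as a random block, Cdkn2b was not called at 24 h against 4 h. Between 48 h and 24 h no member was called, with 2.51% of all genes higher and 1.78% lower and 1 member, Phlda3, at an unadjusted p under 0.05. Comparisons with the same earlier group share its samples, so calls in them are not independent of each other.

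**Figure D1:**
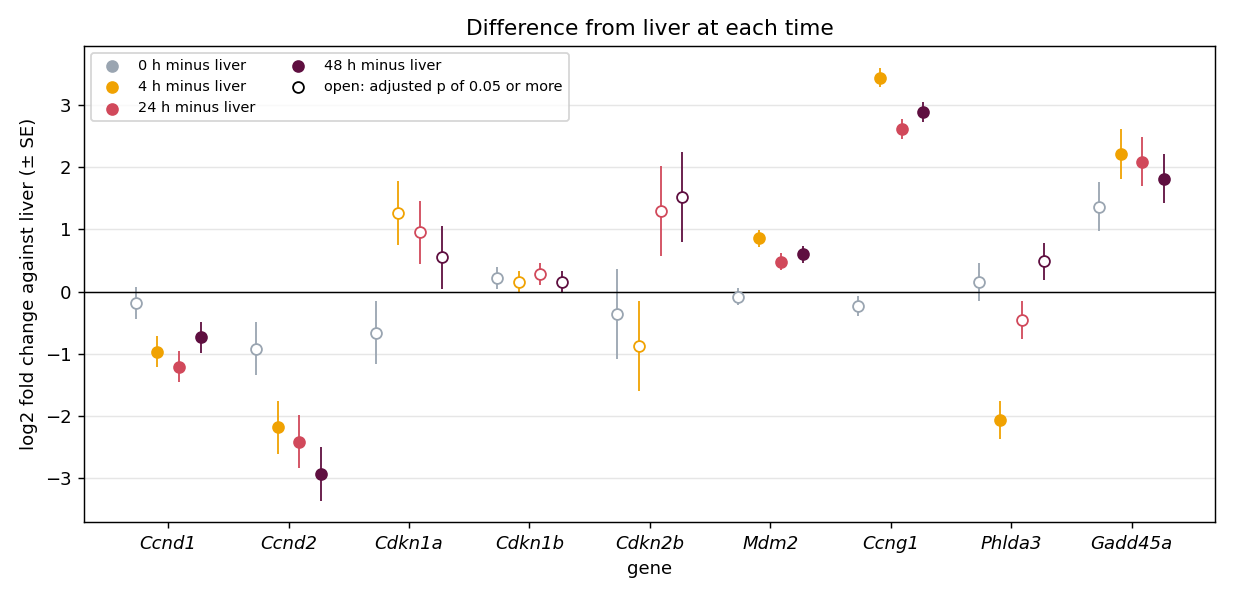
Log2 fold change of each member against liver (vertical axis, ± SE from limma) in 0, 4, 24 and 48 h hepatocytes. Filled points have an adjusted p under 0.05 and open points do not. Ccng1, Gadd45a and Mdm2 lie above 0 with filled points at 4, 24 and 48 h, Ccnd1 and Ccnd2 lie below 0, and Phlda3 lies below 0 with a filled point at 4 h alone.

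Several properties of the samples moved with the groups. The ratio of 3' to 5' beta-actin signal, which is higher in degraded RNA, was 3.21 to 6.96 in liver, 3.16 to 4.30 at 0 h, 2.85 to 3.12 at 4 h, 2.23 to 2.50 at 24 h and 1.95 to 2.46 at 48 h, and rat 1 had the highest value in liver. The summed signal of 12 endothelial markers was 15233 to 19127 in liver, 9536 to 13708 at 0 h, 3790 to 5901 at 4 h, 2003 to 3411 at 24 h and 656 to 1288 at 48 h. The 12 hepatocyte markers tested summed to 176069 to 198862 at 48 h, against 300071 to 329580 in liver, so hepatocyte transcripts were present in every group. The liver of rat 1 had an erythroid sum of 7830, against 57272 and 59323 in the other livers. After group means were removed, the liver of rat 1 correlated at r of -0.0717 to 0.215 with the cells of its own rat and 0.129 to 0.228 with those of rat 2, and the liver of rat 2 at -0.155 to 0.0205 with its own cells and 0.0539 to 0.0963 with those of rat 1. Comparisons with liver were therefore read between groups, and results that changed without one of these livers are given with and without it.

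Ccnd1 (chr1:209518288-209527986, GRCr8) fell in culture. Its signals in rats 1, 2 and 3 were 2834, 2009 and 2057 in liver, 2952, 1873 and 1440 at 0 h, 1466, 895 and 1184 at 4 h, 964, 1094 and 892 at 24 h, and 1377, 1222 and 1489 at 48 h. The 3 samples at 4, 24 and 48 h all lay below the lowest liver, while those at 0 h overlapped it. Against liver the log2 fold change was -0.97 ± 0.25 at 4 h (SE, n = 3 each, limma adjusted p = 0.00674), -1.21 at 24 h (adjusted p = 0.00152) and -0.74 at 48 h (adjusted p = 0.0265). Against 0 h it was -0.79 at 4 h (adjusted p = 0.0247), -1.03 at 24 h (adjusted p = 0.00514) and -0.56 at 48 h (adjusted p = 0.0900, and 0.0454 once rats were blocked in all 15 samples, while the block on hepatocytes alone did not call it). In the order of levels, liver, 0 h, 48 h, 4 h and 24 h, no pair of neighbours passed the test.

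The fall of Ccnd1 was less firm at 48 h and between 4 h and 0 h than its size in the other comparisons. The call at 48 h against liver was lost without the liver of rat 1 (-0.58, limma adjusted p = 0.105) or without the 48 h sample of rat 1 (adjusted p = 0.0535) or rat 2 (adjusted p = 0.0851), and that at 4 h against 0 h without the 0 h sample of rat 1 (-0.50, adjusted p = 0.110) or the 4 h sample of rat 2 (adjusted p = 0.104) or rat 3 (adjusted p = 0.0506). Of its other probe sets, the second brightest gave -0.98, -1.06 and -0.89 against liver at 4, 24 and 48 h, all called, while the dimmest gave -0.26, -0.41 and -0.06, none called.

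Ccnd2 (chr4:161653048-161675422) fell further than Ccnd1 in log2 terms against liver. Signals of Ccnd2 in rats 1, 2 and 3 were 520, 524 and 354 in liver, 417, 166 and 205 at 0 h, 158, 68.8 and 93.1 at 4 h, 114, 62.7 and 88.1 at 24 h, and 88.0, 32.3 and 75.3 at 48 h. All samples from 4 h onwards lay below all liver and all 0 h samples, and rat 2 was the lowest at each time from 0 h on. The change against liver was -2.19 ± 0.43 at 4 h (SE, n = 3 each, limma adjusted p = 0.00119), -2.42 at 24 h (adjusted p = 5.21e-04) and -2.94 at 48 h, 7.67-fold lower (adjusted p = 1.06e-04). Against 0 h it was -1.27 at 4 h (adjusted p = 0.0331), -1.50 at 24 h (adjusted p = 0.0136) and -2.02 at 48 h (adjusted p = 0.00203). Neighbouring times from 4 h on did not pass the test, with or without rats blocked, although each of the 3 rats was lower at 24 h than at 4 h (log2 differences of -0.47, -0.14 and -0.08) and at 48 h than at 24 h (-0.38, -0.96 and -0.23). Array medians were 79.7 to 115 at 4 h, 84.4 to 111 at 24 h and 86.1 to 112 at 48 h. Ccnd2 was therefore dim from 4 h on, and the size of its changes is uncertain. With 32 added to every signal, the change against liver was -1.86, -2.05 and -2.37 at 4, 24 and 48 h, all called.

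The fall of Ccnd2 went together with that of the endothelial markers given above, of which 12 of 12 were called lower at 4, 24 and 48 h against liver. Lower in the same comparisons were Kupffer cell and macrophage markers (9, 8 and 9 of 10), lymphocyte markers (2 of 2) and erythroid markers (5 of 5). Of 13 stellate and fibroblast markers 10, 7 and 7 were lower and 0, 2 and 2 higher. All genes were called lower at 29.8%, 23.9% and 22.6%. The part of these cells in the fall of Ccnd2 was not tested. In whole RNA of mixed cells, fewer cells of a type and less RNA per cell cannot be told apart. The call at 4 h against 0 h was lost without the 0 h sample of rat 1 (-0.88, limma adjusted p = 0.141) or the 4 h sample of rat 2 (adjusted p = 0.125) or rat 3 (adjusted p = 0.0807), and that at 24 h against 0 h without the 0 h sample of rat 1 (-1.10, adjusted p = 0.0648) or the 24 h sample of rat 2 (adjusted p = 0.0573).

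Cdkn1a (chr20:7150820-7161373), which encodes p21, was higher in cultured cells than in the fresh pellet. Rats 1, 2 and 3 had Cdkn1a signals of 1895, 3019 and 1027 in liver, 1779, 691 and 1205 at 0 h, 3298, 3114 and 7955 at 4 h, 3310, 2183 and 5897 at 24 h, and 2094, 2090 and 4206 at 48 h. Rat 3 had the highest signal at 4, 24 and 48 h and the lowest in liver, and all cultured samples lay above all 0 h samples. The change against 0 h was 1.93 ± 0.51 at 4 h (SE, n = 3 each, 3.81-fold, limma adjusted p = 0.00948), 1.62 at 24 h (adjusted p = 0.0220) and 1.21 at 48 h (adjusted p = 0.0715). The call at 24 h was lost without any one of the rats (adjusted p = 0.0703, 0.0607 and 0.0630 without rats 1, 2 and 3). It was also lost without the 0 h sample of rat 2 (1.25, adjusted p = 0.0935) or the 24 h sample of rat 3 (1.24, adjusted p = 0.0988). At 48 h the change was called without the 0 h sample of rat 1 (1.53, adjusted p = 0.0462) and with the technical arrays as a random block (0.00268). On a second, dimmer probe set of Cdkn1a the changes against 0 h were 2.23, 2.15 and 1.77 at 4, 24 and 48 h. All of these were called (adjusted p = 0.00112, 0.00121 and 0.00420).

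Whether Cdkn1a was called higher than in liver depended on the probe set and on the processing. On the brighter one the change against liver was 1.27 at 4 h (limma adjusted p = 0.0582), 0.95 at 24 h (adjusted p = 0.142) and 0.55 at 48 h (adjusted p = 0.394). Without the liver of rat 2, the highest of the livers, the change at 4 h was 1.64 (adjusted p = 0.0335). That probe set was also called at 4 h with arrays centred on their median (1.725, adjusted p = 0.0104) and with 32 added to every signal (0.0426). A variance trend in eBayes (0.0394) and the technical arrays as a random block (0.00239) called it too, while quantile normalization did not (0.0927). At 24 h it was called with centring (1.37, adjusted p = 0.0273) and with that block (0.0169). On the dimmer one the signals were 140, 450 and 130 in liver, 181, 151 and 204 at 0 h, 667, 724 and 1199 at 4 h, 764, 534 and 1203 at 24 h, and 508, 609 and 708 at 48 h. All cultured samples of that probe set lay above all liver samples, and the changes of 2.05, 1.97 and 1.58 against liver at 4, 24 and 48 h were called (adjusted p = 0.00161, 0.00194 and 0.00771). The liver of rat 2 was the highest liver on both.

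**Figure D2:**
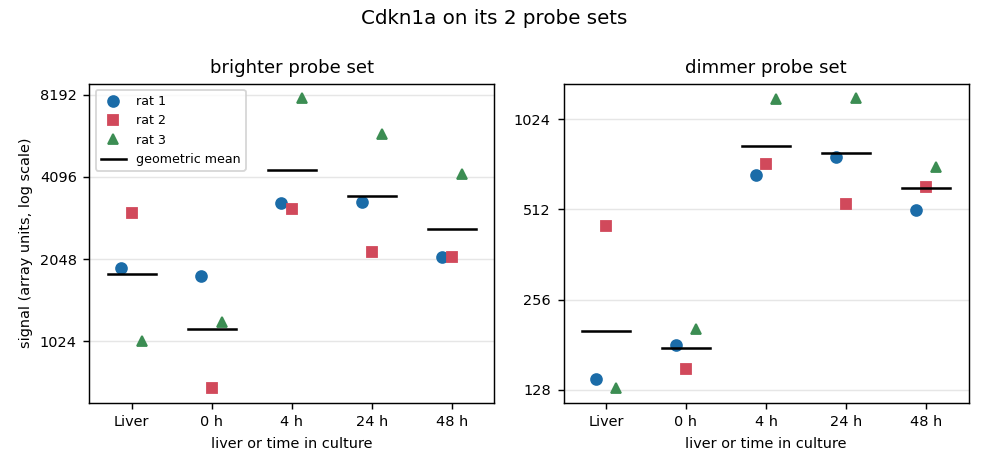
Signal of Cdkn1a (log axis, array units) on its 2 probe sets in liver and at 0, 4, 24 and 48 h, with a point for each rat and a line at the geometric mean of 3 rats. Rat 2 stands highest in liver on both panels, and rat 3 stands highest at 4, 24 and 48 h.

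Cdkn1b (chr4:169491273-169496500), which encodes p27, was called in none of the 9 comparisons. Its signals lay between 1566 and 1848 in liver, 1582 and 2521 at 0 h, 1582 and 2151 at 4 h, 1961 and 2105 at 24 h, and 1796 and 1935 at 48 h. Only at 24 h did all 3 samples lie above all livers. The changes against liver were 0.22, 0.16, 0.28 and 0.16 at 0, 4, 24 and 48 h, each with an SE of 0.17 (n = 3 each, limma adjusted p between 0.190 and 0.636). With arrays centred on their median, 4 h (0.62, adjusted p = 0.0449) and 24 h (0.70, adjusted p = 0.0190) were called higher than liver.

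Cdkn2b (chr5:109123308-109134906), which encodes p15, was close to the low end of the arrays. In rats 1, 2 and 3 the signals were 17.6, 38.4 and 20.5 in liver, 17.6, 15.3 and 24.2 at 0 h, 40.5, 4.87 and 11.4 at 4 h, 102, 24.3 and 83.5 at 24 h, and 108, 30.5 and 98.4 at 48 h. Rats 1 and 3 were high at 24 and 48 h, while rat 2 stayed within the range of liver. The gene was above the array median in 16.3% of arrays, so it passed the filter through the samples in which it was high. Single arrays of one sample spread further (SD of 1.28 on the log2 scale) than samples of one group (1.01).

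The call of Cdkn2b at 48 h against 0 h (1.88 ± 0.73 SE, n = 3 each, limma adjusted p = 0.0497) was lost without any one of the 0 h samples (adjusted p = 0.105, 0.121 and 0.0655 without rats 1, 2 and 3) or without the 48 h sample of rat 1 (0.150) or rat 3 (0.143). The call at 24 h against 4 h (2.17, adjusted p = 0.0292) was lost without the 4 h sample of rat 2 (1.46, adjusted p = 0.128) or rat 3 (0.0757) or the 24 h sample of rat 1 (0.104) or rat 3 (0.0941). With the technical arrays fitted as a random block both calls were lost (adjusted p = 0.201 and 0.151), and that at 48 h against 0 h was lost with no filter (0.0725) and with a variance trend in eBayes (0.0610). Against liver the change was 1.30 at 24 h (adjusted p = 0.156) and 1.52 at 48 h (adjusted p = 0.0996). Both were called with quantile normalization (1.81 and 2.02, adjusted p = 0.0297 and 0.0172), with arrays centred on their median (1.72 and 1.91, adjusted p = 0.0278 and 0.0162) and without rat 2 (2.28 and 2.44, adjusted p = 0.0106 and 0.00756). At 24 h against 0 h the change was 1.66 (adjusted p = 0.0825, and 0.0435 once rats were blocked).

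**Figure D3:**
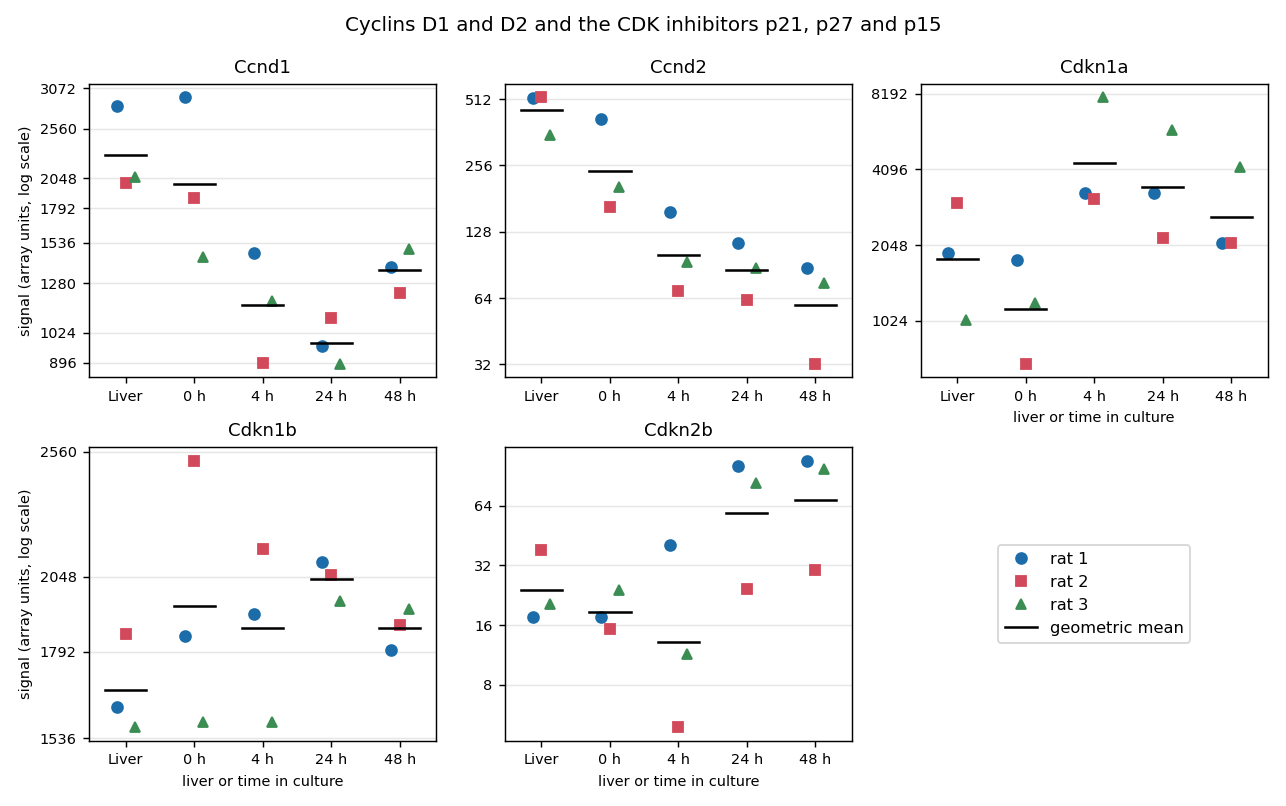
Signals of Ccnd1, Ccnd2, Cdkn1a, Cdkn1b and Cdkn2b (log axes, array units, a range for each gene) in liver and at 0, 4, 24 and 48 h, with a point for each rat and a line at the geometric mean of 3 rats. The Ccnd2 samples from 4 h on lie below every liver and 0 h sample, the Cdkn1b samples overlap between most groups, and the Cdkn2b samples of rat 2 stay low at 24 and 48 h.

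Ccng1 (chr10:25678503-25684876) had the largest rise of the 9 members in culture. Rats 1, 2 and 3 gave signals of 553, 646 and 637 in liver, 532, 449 and 593 at 0 h, 6558, 7690 and 5899 at 4 h, 3715, 4039 and 3559 at 24 h, and 3856, 5158 and 4689 at 48 h. All cultured samples lay above every liver and 0 h sample. The change was 3.45 ± 0.16 at 4 h against liver (SE, n = 3 each, 10.9-fold, limma adjusted p = 2.14e-08) and 3.68 against 0 h (12.8-fold, adjusted p = 1.22e-08). Between times, 24 h was 1.77-fold lower than 4 h (-0.83, adjusted p = 0.00122) and 48 h was 1.47-fold lower than 4 h (-0.56, adjusted p = 0.0109), with 31.4% of all genes called higher and 17.1% lower in 48 h against 4 h. The difference between 48 h and 24 h did not pass the test (0.27, adjusted p = 0.474). No sample left out ended a call of Ccng1.

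Mdm2 (chr7:55176558-55201757) followed the same order of levels with smaller changes. Its signals in rats 1, 2 and 3 were 653, 694 and 683 in liver, 679, 586 and 649 at 0 h, 1360, 1284 and 1050 at 4 h, 905, 1034 and 904 at 24 h, and 928, 1114 and 1042 at 48 h. All cultured samples lay above all liver and 0 h samples. The change against liver was 0.86 ± 0.14 at 4 h (SE, n = 3 each, 1.81-fold, limma adjusted p = 2.70e-04), 0.48 at 24 h (adjusted p = 0.0115) and 0.60 at 48 h (adjusted p = 0.00302). Against 0 h it was 0.94, 0.57 and 0.69 (adjusted p = 1.66e-04, 0.00486 and 0.00127).

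The other probe sets of Mdm2 rose more, with 1.35, 1.57 and 1.37 against liver at 4, 24 and 48 h on the second brightest and 1.47, 1.37 and 1.50 on the dimmest, all called. They did not show the fall of the brightest probe set after 4 h, which was -0.37 at 24 h against 4 h (limma adjusted p = 0.0462), against 0.21 on the second brightest and -0.10 on the dimmest (adjusted p = 0.349 and 0.827). That call was also lost without the 4 h sample of rat 1 (-0.30, adjusted p = 0.157) or rat 2 (adjusted p = 0.120) or the 24 h sample of rat 1 (adjusted p = 0.119) or rat 3 (adjusted p = 0.121), so whether Mdm2 fell after 4 h is not settled by these arrays.

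Phlda3 (chr13:49745003-49748088) was low at 4 h and higher again later, the opposite of Ccng1 and Mdm2 at 4 h. Its signals in rats 1, 2 and 3 were 724, 614 and 1159 in liver, 800, 664 and 1329 at 0 h, 176, 192 and 206 at 4 h, 649, 387 and 792 at 24 h, and 1218, 1068 and 1084 at 48 h. The 4 h samples lay below all others, and the 48 h samples lay above all 24 h samples. The change at 4 h was -2.07 ± 0.30 against liver (SE, n = 3 each, 4.20-fold lower, limma adjusted p = 1.29e-04) and -2.22 against 0 h (adjusted p = 9.52e-05). At 24 h it was 1.61 above 4 h (adjusted p = 9.69e-04), and at 48 h it was 2.55 above 4 h (5.87-fold, adjusted p = 1.67e-05). At 48 h it was 0.94 above 24 h (adjusted p = 0.113, and 0.0243 once rats were blocked), and 24 h against 0 h was -0.61 (adjusted p = 0.124, and 0.0380 once rats were blocked).

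The 13 stellate and fibroblast markers were also low at 4 h, with summed signals of 7423 to 14611 in liver, 3345 to 7079 at 0 h, 934 to 2639 at 4 h, 2948 to 3121 at 24 h and 5645 to 7201 at 48 h, and their part in the levels of Phlda3 was not tested. Of the 13, 10 were called lower at 4 h against liver and 4 higher at 24 h against 4 h, beside 29.8% and 26.3% of all genes. At 48 h against liver 2 were higher and 7 lower (median -1.90), beside 25.4% and 22.6%. The change of Phlda3 there was 0.48 (not called, except with arrays centred on their median). At 48 h against 24 h 1 was called higher, beside 2.51% of all genes. Every deposited signal was above 0, so a value above 0 does not by itself show that a marker was present.

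Gadd45a (chr4:97484497-97486799) was higher than liver in culture, and its mean at 0 h lay between the 2. Its signals in rats 1, 2 and 3 were 575, 672 and 1405 in liver, 1211, 1980 and 3900 at 0 h, 3045, 4710 and 3828 at 4 h, 3380, 3825 and 3275 at 24 h, and 2532, 4070 and 2320 at 48 h. Rat 3 was the highest in liver and at 0 h, and all samples from 4 h on lay above all livers. The change against liver was 2.22 ± 0.40 at 4 h (SE, n = 3 each, 4.66-fold, limma adjusted p = 6.19e-04), 2.10 at 24 h (adjusted p = 8.58e-04) and 1.82 at 48 h (adjusted p = 0.00225). At 0 h it was 1.37 against liver (adjusted p = 0.169), and 1.77 (adjusted p = 0.0407) without the 0 h sample of rat 1, whose 3 arrays ran from 330 to 2491.

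Against 0 h, Gadd45a was not called at 4, 24 or 48 h (0.85, 0.73 and 0.45, limma adjusted p = 0.110, 0.165 and 0.386). Without the 0 h sample of rat 3 the changes at 4 h (1.30, adjusted p = 0.0177) and 24 h (1.17, adjusted p = 0.0258) were called.

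**Figure D4:**
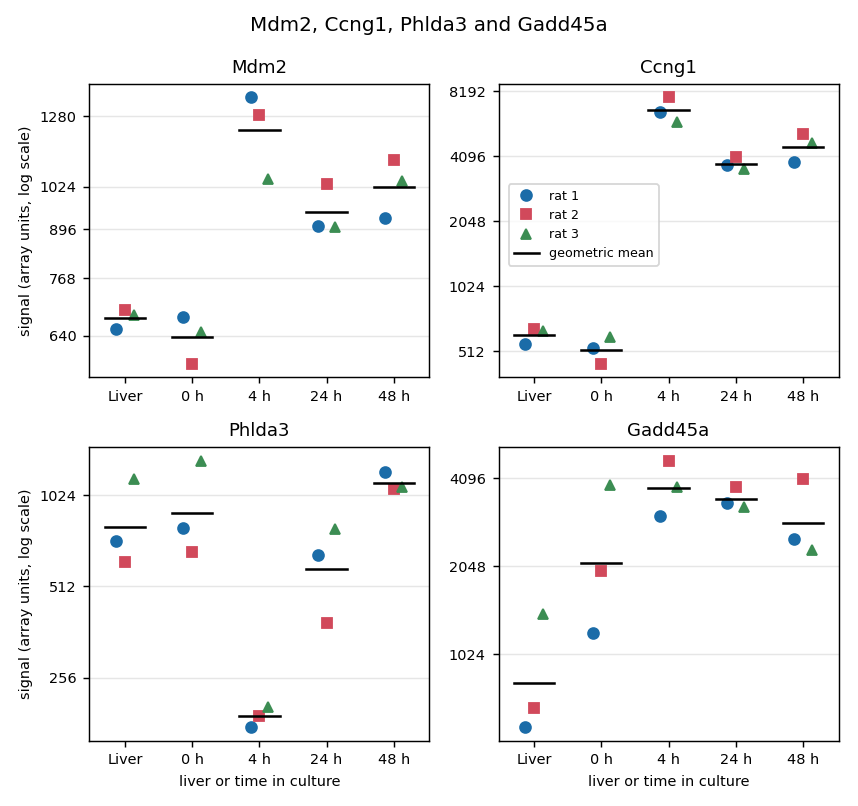
Signals of Mdm2, Ccng1, Phlda3 and Gadd45a (log axes, array units, a range for each gene) in liver and at 0, 4, 24 and 48 h, with a point for each rat and a line at the geometric mean of 3 rats. Ccng1 and Mdm2 stand highest at 4 h and Phlda3 stands lowest there, while Gadd45a lies between liver and the cultured cells at 0 h.

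The genes whose log2 signal over the 15 samples was most like that of a member are given as a description, since the 15 points share 5 groups and 3 rats. Ccng1 was most like Fkbp5 and Enc1 (r = 0.98 each), and Mdm2 most like Mat2a (r = 0.98) and Ccng1 itself (r = 0.96). Ccnd2 was most like Setd1b and Txnip (r = 0.96 each), Ccnd1 like Ppa2 and Atp5mpl (r = 0.92 each), and Gadd45a like Gspt1 (r = 0.94) and Mrps22 (r = 0.93). Phlda3 was most like Alkbh7 and Dnaaf9 (r = 0.94 each), Cdkn1a like Plec (r = 0.93) and Nf2 (r = 0.89), Cdkn2b like Dsc2 and Slc35c1 (r = 0.91 each), and Cdkn1b like Slc39a4 (r = 0.84) and Ppp1r2 (r = 0.83). Among the members, Ccnd1 and Ccnd2 had r = 0.81, and Gadd45a had r = -0.86 with Ccnd1 and -0.85 with Ccnd2.

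Other p53 targets moved both ways. Of 27 listed, 18 were tested. At 4 h against 0 h 5 were called higher and 5 lower, beside 16.3% of all genes higher and 22.7% lower. At 48 h against 0 h 7 were higher and 4 lower, beside 26.6% and 17.5%. The medians were -0.07 at 4 h and 0.29 at 48 h, against -0.15 and 0.12 over all genes tested. Tp53inp1, which promotes p53 activity in stress, was 2.22 higher at 4 h than at 0 h (limma adjusted p = 2.10e-04), with signals of 443, 838 and 839 at 4 h, against 122, 143 and 175 at 0 h. Sesn1, a stress-induced inhibitor of TORC1, rose by 1.84 (adjusted p = 2.29e-05) and Aen, an apoptosis-enhancing nuclease, by 1.71 (adjusted p = 1.54e-05). Fas, the death receptor, was not called at 4 h and was 2.52 higher at 24 h than at 0 h (adjusted p = 4.99e-04), with signals of 1182, 896 and 1165 at 24 h, against 230, 80.4 and 358 at 0 h. The 5 lower genes at 4 h, which were named after their values were seen, were Sesn2 (-1.55), Xpc (-1.38), Ddb2 (-1.27), Ei24 (-0.85) and Plk2 (-0.65). Tnfrsf1b, a TNF receptor, was lower at 48 h than in liver (-1.77, adjusted p = 0.00146).

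**Figure D5:**
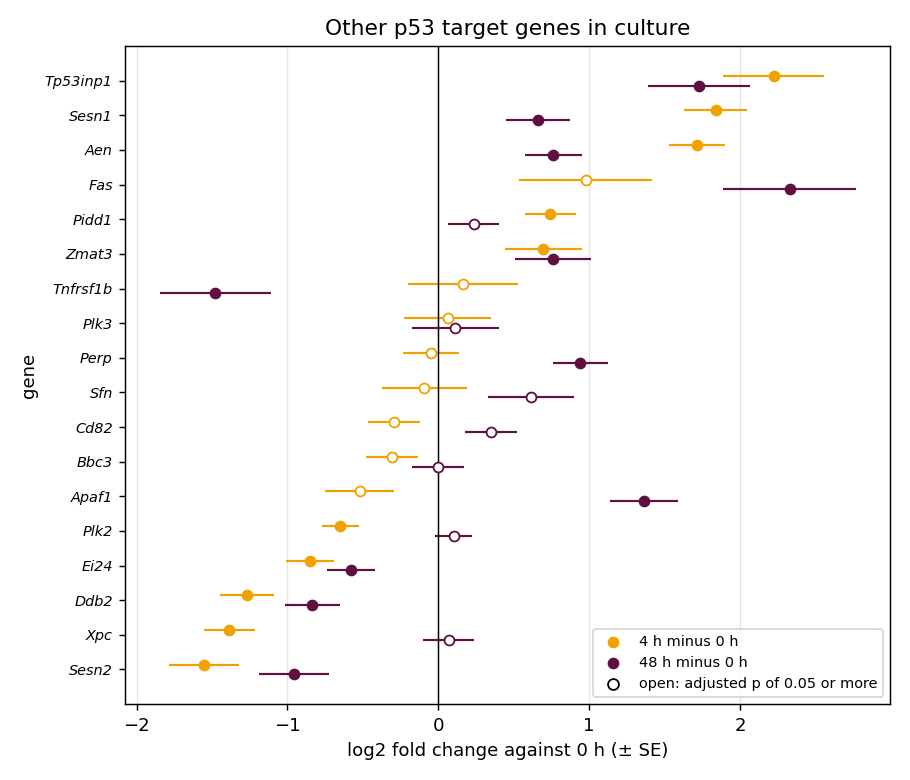
Log2 fold change of the 18 other p53 targets tested against 0 h (horizontal axis, ± SE from limma), at 4 h and at 48 h, ordered by the value at 4 h. Filled points have an adjusted p under 0.05. Tp53inp1, Sesn1 and Aen are filled and above 0 at both times, and Sesn2, Ddb2 and Ei24 are filled and below 0 at both.

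Of the regulators of p53, 8 of 11 listed were tested, and at 4 h against liver 0 were called higher and 3 lower, a share of lower genes close to the 29.8% over all genes. Those were Ppm1d (-0.78, limma adjusted p = 0.0310), a phosphatase that acts on p53 and its kinases, Tp53bp1 (-0.75, adjusted p = 0.00400), a DNA damage adaptor, and Mdm4 (-0.65, adjusted p = 0.0276), the partner of Mdm2. Mdm4 was also lower than liver at 48 h (-0.96, adjusted p = 0.00280), where Mdm2 was higher. Hipk2, a kinase of p53, was higher at 48 h than in liver (0.93, adjusted p = 0.00664), and Chek1, a checkpoint kinase, was lower (-0.88, adjusted p = 0.0298). At 24 h against 0 h Hipk2 (1.39) and Atr (0.59), another checkpoint kinase, were higher and Chek1 (-1.48) was lower.

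The relatives of Gadd45a went separate ways. Gadd45b was 5.43 higher at 4 h than in liver (limma adjusted p = 6.21e-05), with signals of 3665, 5511 and 4074 at 4 h, against 420, 117 and 20.7 in liver. Gadd45g was 1.33 higher at 0 h than in liver (adjusted p = 0.0479), with signals of 3680, 8278 and 7239 at 0 h, against 1898, 2891 and 2506 in liver. That call was lost without the liver of rat 2 or rat 3 or the 0 h sample of rat 3, where no gene was called. Gadd45g was then lower at 48 h than in liver (-3.01, adjusted p = 1.51e-06), with signals of 338, 329 and 238 at 48 h.

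Beside the D cyclins, 8 of 9 other G1 cyclins and kinases were tested, with 3 higher and 1 lower at 4 h and 4 higher and 1 lower at 48 h against liver. Over all genes 16.4% were higher and 29.8% lower at 4 h, and 25.4% and 22.6% at 48 h. Ccne1 (cyclin E1), which acts after the D cyclins, was 1.12 higher at 4 h than in liver (limma adjusted p = 4.37e-04), with signals of 274, 233 and 227 at 4 h, against 88.7, 109 and 145 in liver. Ccne2 was higher at 48 h (1.10, adjusted p = 0.00400). Cdk7 (0.48) and Ccnh (0.59), which together activate the cell cycle kinases, were higher at 4 h, and Cdk2, the partner of cyclin E, was lower at 48 h (-0.71). Cdc25a, a phosphatase that activates Cdk2, was 0.65 higher at 4 h than at 0 h.

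Of the CDK inhibitors outside the members, 3 of 4 were tested, and those called against liver were lower, 2 at 4 h and 1 at 48 h. The shares of all genes called lower were 29.8% and 22.6%. Cdkn2d (-2.06, limma adjusted p = 0.0110) and Cdkn2c (-1.51, adjusted p = 0.00705), of the family of p15, were lower at 4 h, and Cdkn1c (p57) was lower at 48 h (-2.18, adjusted p = 7.14e-04) and lower at 24 h than at 0 h (-2.95). Of the genes for p27 turnover, 3 of 4 were tested. At 4 h and at 48 h 2 were called higher than liver, beside 16.4% and 25.4% of all genes. Cks1b, which helps p27 to be recognised for degradation, was higher at 4 h than in liver (1.54, adjusted p = 3.52e-04), Cul1 was higher at 4 h (0.65) and 48 h (0.52), and Skp1 was higher at 48 h (0.91), while Cdkn1b itself was not called.

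All 10 of the 11 RB and E2F genes that were tested were called at 4 h against liver, 4 higher and 6 lower, beside 16.4% of all genes higher and 29.8% lower. Rb1, which encodes RB, was among the lower ones (-2.33, limma adjusted p = 6.02e-06), with signals of 145, 115 and 117 at 4 h, against 551, 658 and 677 in liver, and it was still lower at 48 h (-1.66, adjusted p = 6.23e-05). E2f2 was lower at 4 h (-2.13) and 48 h (-1.65), and the erythroid markers, which summed to 231 to 324 at 48 h, against 7830 to 59323 in liver, went with it, and their part in it was not tested. E2f5 (1.64 at 4 h) and E2f6 (1.06 at 48 h), which act mostly as repressors, were higher, and Rbl2, a relative of RB, was lower at 24 h than at 0 h (-1.02).

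Of 18 genes of S phase and mitosis, 16 were tested, with 2 higher and 9 lower at 4 h, 0 higher and 7 lower at 24 h, and 1 higher and 3 lower at 48 h against liver. The shares of all genes called lower were 29.8%, 23.9% and 22.6% in these comparisons, and 3 of 16 is below the last of them. The endothelial markers (12 of 12 at each time) and the Kupffer cell and macrophage markers (9, 8 and 9 of 10) were lower in the same comparisons, and their part was not tested. Mki67, the proliferation antigen Ki-67, was -2.30 at 4 h against liver (limma adjusted p = 6.66e-04), and Cdc20 (-2.38) and Plk1 (-2.28), which act in mitosis, were lower too. Over all genes 2.51% were higher and 1.78% lower at 48 h against 24 h, and 3 of the 16 were higher and 0 lower. One was Mki67 (2.07, adjusted p = 0.0140), with signals of 53.9, 117 and 137 at 48 h, against 17.0, 24.4 and 28.6 at 24 h, where array medians were 84.4 to 111, so the 24 h level is dim and the size of the change uncertain. The others, named after their values were seen, were Ccna2 (1.82, adjusted p = 0.0267) and Cdk1 (1.60, adjusted p = 0.0180). Against liver at 48 h, Plk1 (-1.71) and Top2a (-1.12), a topoisomerase of dividing cells, were lower and Tyms, which makes thymidylate, was higher (0.99).

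The actin ratio and the scaling of the arrays bear on these calls. With the log2 actin ratio as a covariate, Ccng1 was called in all 7 comparisons in which it was called without it, and Ccnd2 was called against liver at 4, 24 and 48 h. Ccnd1 and Cdkn2b were called nowhere, Cdkn1a was called at 4 h against 0 h alone, Mdm2 was called at 4 h against liver and at 4 and 48 h against 0 h, Gadd45a was called at 4 h against liver alone, and Phlda3 kept its calls at 4 h against liver and 0 h and at 24 h against 4 h. With arrays centred on their median, the median change of all genes was 0.21, 0.42 and 0.43 at 4, 24 and 48 h against liver, in place of -0.25, 0.0012 and 0.04, and the share of called genes that were higher was 68.2%, 74.4% and 75.0%, in place of 35.5%, 49.8% and 52.9%. For 0 h against liver that share was 51.4% in place of 24.6%. Under this scaling Ccnd1 was not called at 4 h (-0.51, limma adjusted p = 0.112) or 48 h (-0.35, adjusted p = 0.239) against liver. Mdm2 was not called at 24 h against 4 h (-0.415, adjusted p = 0.113). Phlda3 was called higher than liver at 48 h (0.88, adjusted p = 0.0294). The calls that Cdkn1a, Cdkn1b and Cdkn2b gained against liver are given with each gene. No member's called change turned its sign.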

How the data were processed

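Total RNA of 15 samples was hybridised to 43 Affymetrix RG230-2 arrays. The deposited values are linear signal intensity from MAS5, which the authors scaled to a trimmed mean of 500 after leaving out 2% at each end, and they excluded 1 array at 4 h and 1 at 48 h. Versions of MAS5 and of affy, both named in the submitters' processing notes, are not given. The number of arrays, from 3 rats a group, limits the precision.

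Signals were taken to log2 with no offset and averaged over the technical arrays of a rat and group. Genes above the array median in at least 10% of arrays were kept, each from its brightest probe set of 1 symbol (20832 probe sets, from the platform annotation). The 9 comparisons between groups were tested with limma 3.58.1 (lmFit and eBayes on all 15 samples) in R 4.3.3, with Benjamini-Hochberg adjustment, and 48 h against 4 h was added after the data were seen. The function was tested on simulated data. With 3 samples a group, the smallest two-sided p of an exact permutation test is 0.1.

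Samples of the same number came from the same rat. Their deviations from the group means had a median r of 0.34 (30 pairs), or 0.42 among hepatocytes (18 pairs), against -0.18 for different rats (60 pairs). Results with the rat as a block stand where they change a call. The members, gene lists and tests were chosen with earlier results of these data known. All members were named, with up to 3 called genes of each list by size of change in 4 comparisons (4 h and 48 h against liver, 4 h and 24 h against 0 h), and the 2 most alike genes of each member. Alternatives covered scaling, offset, filter, probe set choice, blocking, the samples in the fit, variance trend, threshold, the actin ratio and leaving out each rat or sample.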

Additional observations from a re-analysis of the deposited data

Results flagged for a closer look

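Effects against liver of opposite sign at different times were looked at again, where either was called and the difference itself passed the test. Ccnd1, Ccnd2, Cdkn1a and Cdkn2b also had differences between times that passed, given with each gene above. Mdm2 was lower than liver at 0 h by an amount that did not pass the test (-0.09, limma adjusted p = 0.830), and it was higher later. Its change against liver was larger by 0.94 at 4 h, 0.57 at 24 h and 0.69 at 48 h than at 0 h on the log2 scale. Ccng1 showed the same pattern, with changes larger by 3.68 at 4 h, 2.85 at 24 h and 3.12 at 48 h than at 0 h. Phlda3 was lower by -2.22 at 4 h relative to 0 h, and its change at 48 h was 2.55 above that at 4 h. These comparisons share the liver samples, and each difference is the limma test between the times themselves.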

How the results depend on the processing

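The counts of members called held within 1.5 times of the reported ones under most alternatives. Exceptions were the actin ratio as a covariate, with 2 called at 24 h against liver, 2 at 48 h against liver, 1 at 24 h against 0 h, 2 at 48 h against 0 h and 2 at 24 h against 4 h, centring on the array median, with 8 called at 24 h against liver, and a threshold of 0.01, with 3 at 24 h against 0 h and 2 at 24 h against 4 h. Fitting the 2 groups alone gave 2 at 24 h against 4 h. At 48 h against 24 h the technical arrays as a random block, the rat as a replicate block and that block on hepatocytes alone each gave 1, which was Phlda3. Leaving out each rat or sample gave 0 to 1 at 0 h against liver (1 without the 0 h sample of rat 1) and 2 to 4 at 24 h against 4 h (2 without rat 3, the 4 h sample of rat 2, or the 24 h sample of rat 1 or rat 3). Without rat 2 altogether Ccnd1 at 4 h against liver (adjusted p = 0.0800), Gadd45a at 48 h against liver (0.0850) and Mdm2 at 24 h against 0 h (0.107) were not called in limma, and Ccnd1 at 48 h and Mdm2 at 24 h against liver, Cdkn1a at 24 h against 0 h and Mdm2 at 24 h against 4 h were lost without any 1 of the rats, in fits with fewer samples. The sign of a called change turned once, for Mdm2 at 24 h against 4 h on its second brightest probe set (0.21). The replicate block changed no call other than those given beside Ccnd1, Cdkn2b and Phlda3, and on hepatocytes alone it called Cdkn1a at 48 h against 0 h (adjusted p = 0.00808) and did not call Ccnd1 there. The causes were not tested. Signal near the low end of the arrays limits Cdkn2b.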
